A study of Mus musculus with 12 samples.

Results

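Denervated muscle of Smad4 knockout mice was compared with denervated muscle of wild-type mice across all genes measured. The members are the 6 arrays titled as 14-day denervated muscle, 3 of them from Smad4 knockout (KO) mice and 3 from wild-type (WT) mice, out of 12 arrays in the series. The other 6 arrays hold innervated muscle of both genotypes, 3 each. They serve to set a difference beside the one in muscle that kept its nerve. They also enter the probe filter and the shared estimate of the spread, on which the p-values of the main fit rest. Every array was hybridised with RNA of the whole gastrocnemius, a calf muscle, of an adult male CD1 mouse, and per the labels each experiment used different animals, so the p-values rest on the spread between animals. The cells in which Smad4 was deleted, the promoter that drove the deletion and the part of the gene removed are not given in the sources used here. Of 15225 genes tested, 14817 had a probe well above background on all 3 arrays of a denervated group.

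Smad4 is the Smad protein that pairs with the receptor-activated Smads of both branches of the TGF-beta family. In the BMP branch, ligands such as GDF5 lead to Smad4 complexes that switch on genes such as the Id genes and the inhibitory Smads, and in the branch of myostatin, activin and TGF-beta they lead to complexes with other receptor Smads. In skeletal muscle myostatin is known to hold back growth, while BMP signalling is known to help maintain mass. Cutting the nerve leads to atrophy, to a spread of acetylcholine receptors beyond the neuromuscular junction and to a programme of myogenic genes that adult fibres otherwise keep low.

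The 6 genes whose promoters are printed next come from 3 groups that the results turn on. Id2, Id3, Atoh8 and Smad6 are BMP targets, Musk is the receptor kinase of the neuromuscular junction, and Fgf21 is a secreted stress hormone. They are those of 12 genes sought that the promoter reference held. It had no entry for Id1, Smad7, Lrp4, Chrnd, Etv4 and Cdkn1c. Each sequence is the 250 bases before the start of the gene in RefSeq (GRCm38.p6), read 5′ to 3′ on the strand of the gene. For the BMP targets, capitals mark GGCGCC and CAGAC, motifs known to be bound by Smad proteins. In Musk they mark CANNTG, the E-box of myogenic factors, and in Fgf21 they mark TGATGNAA, the element of ATF4 with C/EBP proteins. All were searched on both strands.
Id2, chr12:25096093-25096342, minus strand: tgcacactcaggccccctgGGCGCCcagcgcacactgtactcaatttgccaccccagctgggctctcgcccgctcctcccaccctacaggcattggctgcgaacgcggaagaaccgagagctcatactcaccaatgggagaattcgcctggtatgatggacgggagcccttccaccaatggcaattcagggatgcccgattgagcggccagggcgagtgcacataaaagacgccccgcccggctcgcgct
Id3, chr4:136143572-136143821, plus strand: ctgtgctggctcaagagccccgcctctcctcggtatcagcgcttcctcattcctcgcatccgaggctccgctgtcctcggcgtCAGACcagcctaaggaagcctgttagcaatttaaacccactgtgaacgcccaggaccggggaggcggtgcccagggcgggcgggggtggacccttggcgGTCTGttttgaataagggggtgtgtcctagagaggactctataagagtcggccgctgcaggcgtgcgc
Atoh8, chr6:72235578-72235827, minus strand: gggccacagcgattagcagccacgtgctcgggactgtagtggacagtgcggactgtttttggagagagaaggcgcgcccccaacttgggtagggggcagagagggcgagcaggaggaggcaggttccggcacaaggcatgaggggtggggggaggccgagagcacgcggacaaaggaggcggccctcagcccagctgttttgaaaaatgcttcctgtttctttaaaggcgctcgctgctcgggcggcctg
Smad6, chr9:64022060-64022309, minus strand: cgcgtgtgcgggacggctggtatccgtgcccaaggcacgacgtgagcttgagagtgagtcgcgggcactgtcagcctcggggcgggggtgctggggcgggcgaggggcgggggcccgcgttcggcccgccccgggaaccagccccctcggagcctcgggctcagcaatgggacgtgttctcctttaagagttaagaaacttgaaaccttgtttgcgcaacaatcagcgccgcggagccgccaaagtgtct
Musk, chr4:58285712-58285961, plus strand: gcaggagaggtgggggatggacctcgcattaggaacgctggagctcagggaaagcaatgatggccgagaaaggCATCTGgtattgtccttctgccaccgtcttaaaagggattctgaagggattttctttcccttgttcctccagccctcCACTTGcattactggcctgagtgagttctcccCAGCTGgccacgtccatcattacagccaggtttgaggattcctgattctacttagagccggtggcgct
Fgf21, chr7:45615491-45615740, minus strand: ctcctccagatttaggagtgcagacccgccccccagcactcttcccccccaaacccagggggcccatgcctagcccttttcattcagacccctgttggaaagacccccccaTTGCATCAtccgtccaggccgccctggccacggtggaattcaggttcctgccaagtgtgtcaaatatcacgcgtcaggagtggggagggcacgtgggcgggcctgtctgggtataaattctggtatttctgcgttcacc

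The window of Id2 held 1 GGCGCC and no CAGAC, that of Id3 held 2 CAGAC and no GGCGCC, and those of Atoh8 and Smad6 held neither set of letters. Musk had 3 E-boxes and Fgf21 had 1 TGATGNAA. None of the marked motifs overlapped another. Over 27025 RefSeq promoter windows of the same length, 9.54% held GGCGCC, 42.1% held CAGAC, 66.0% held CANNTG and 3.53% held TGATGNAA. These matches describe letters in a window and are not shown to be bound sites.

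Each value below is the log2 signal of a gene's brightest probe minus the 75th percentile of its array, a scaled signal on which 1 unit is a 2-fold change. Arrays are written WT 1 to 3 and KO 1 to 3 by the number in their titles, and refer to denervated muscle unless called innervated. The 6 denervated arrays had between 53.03% and 56.4% of their probes well above background, and their 75th percentile lay between 226 and 383 intensity units. Taken over genes, which are no replicates of each other, r lay at 0.974 to 0.985 for arrays of one denervated group and at 0.959 to 0.979 for arrays of different genotype. The first principal component of the 6 arrays held 38.9% of the variance and had all 3 WT arrays on one side and all 3 KO arrays on the other. The arrays lay on 4 slides. WT 1 and KO 1 shared slide 1, and WT 2, WT 3 and KO 2 shared slide 4, which was scanned on another day, while KO 3 lay on slide 3 without a denervated WT array. Within-slide values below are therefore KO 1 minus WT 1, and KO 2 minus the mean of WT 2 and WT 3. The second principal component held 23.6% of the variance. It had WT 2, WT 3 and KO 2 of slide 4 on one side and the arrays of the other slides on the other. Muscle fibre markers were bright on every array, with all 10 members well above background on all 6.

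Smad4, the targeted gene, lay at 3.11, 3.45 and 3.23 on WT 1, 2 and 3 and at 1.68, 1.99 and 1.82 on KO 1, 2 and 3. All KO arrays were below all WT arrays, and the gene was 2.70-fold lower in KO muscle (log2 -1.43 ± 0.16 SE, n = 3 against 3, limma adjusted p = 0.00159). The probe maps to the minus strand of chromosome 18 from 73764420 to 73764479 (mm8), and a second Smad4 probe differed by -1.57. Whether either probe lies in the deleted part is unknown. KO muscle kept signal, and in whole muscle fewer cells of a type and less RNA per cell cannot be told apart.

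In denervated muscle 364 of 15225 genes passed the test (limma, Benjamini-Hochberg adjusted p under 0.05), which is 2.39% of genes. Of these, 145 were higher in KO muscle (0.952% of genes) and 219 lower (1.44%), and 235 differed by at least 2-fold, 104 higher and 131 lower (1.54% of genes). At an unadjusted p under 0.05, 7.11% of genes were higher and 9.34% lower. The higher genes were 39.8% of the calls, against 49.7% with quantile normalization and 32.2% with scaling to the array median, and 17 of the 25 calls made with normexp background correction were higher. The 3 KO arrays lay entirely above or below the 3 WT arrays for 363 of the 364, against 21.7% of all genes (9.18% higher and 12.5% lower). The median difference of all genes was -0.03. With genes split into 4 equal groups by signal it ran from 0.07 in the dimmest group to -0.10 in the brightest, and with quantile normalization the brightest group was at 0.02, so small negative differences of bright genes depend on the scaling. The share of genes called was between 2.34% and 2.50% in each of the 4 groups, and between 1.48% (chromosome 5) and 3.41% (chromosome 13) over the chromosomes. Chromosome 18, which holds Smad4, had 7 called genes of 373 (1.88%).

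**Figure D1:**
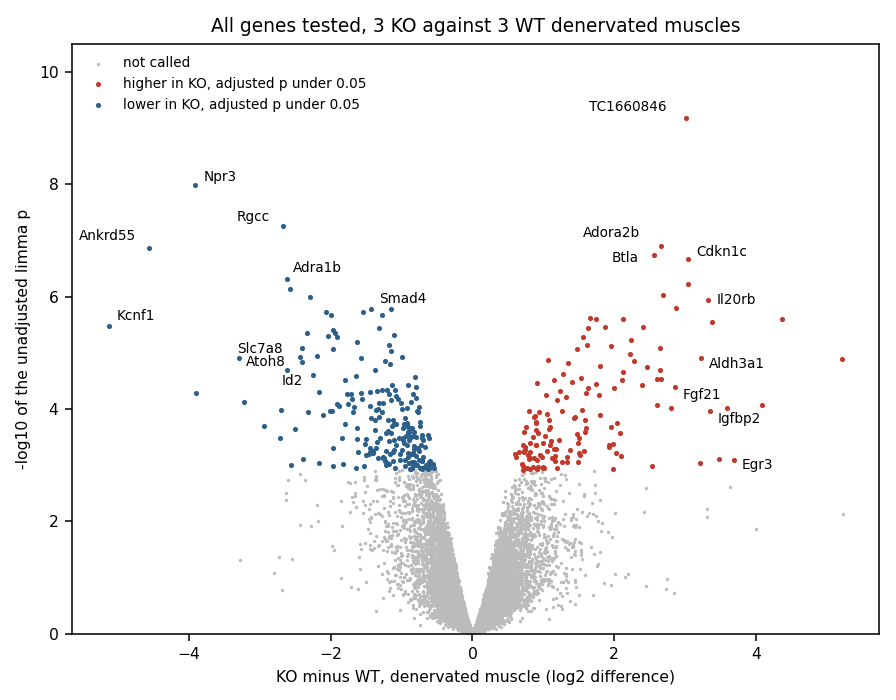
Each point is 1 of the 15225 genes, with the KO minus WT log2 difference in denervated muscle on the x axis and -log10 of the unadjusted limma p on the y axis. Red points (145) were higher and blue points (219) lower in KO muscle at an adjusted p under 0.05, and grey points were not called. Npr3 and Rgcc stand highest among the falls, and TC1660846, Adora2b, Btla and Cdkn1c among the rises.

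These calls varied with the arrays used. Of the 364 calls, 119 held in each of the 12 fits that left out 1 array, 53 of them higher and 66 lower. The number of called genes was 231 without WT 1, 159 without WT 2, 239 without WT 3, 158 without KO 2 and 202 without KO 3. With normexp background correction, which adds an offset, only 25 genes passed, 24 of them among the 364, while 355 of the 364 kept their sign. The cause of this drop was not tested. The fit of the 6 denervated arrays alone called 130 genes, 114 of them among the 364. All 364 had the same sign within slide 1 and within slide 4. For 363 of them this had to be so, because their KO and WT arrays did not overlap, so it is no separate check. Below, a gene said to hold without any 1 array kept its call in all 12 such fits, and for other called genes the arrays whose omission ended the call are named.

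Several BMP target genes were lower in KO muscle. Of 14 measured members of this list, 5 were called lower and none higher, against 1.44% of all genes called lower: the inhibitor of differentiation genes Id2 and Id3, the helix-loop-helix factor Atoh8 and the inhibitory Smads Smad6 and Smad7. The other 9 members did not pass, and the median of the list was -0.25 against -0.03 for all genes. Id2, whose product blocks the DNA binding of helix-loop-helix factors, lay at 2.93, 3.65 and 2.98 on the WT arrays and at 1.5, 0.96 and 0.36 on the KO arrays, a fall by 2.25 ± 0.33 (adjusted p = 0.00545). Id3 lay at 1.74, 1.44 and 1.86 in WT and at 0.61, 0.41 and 0.57 in KO muscle, a fall by 1.15 ± 0.19 (adjusted p = 0.00951). For both genes no KO array reached the lowest WT array.

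Atoh8 lay at 0.11, 0.16 and 0.66 on the WT arrays and at -1.55, -2.96 and -1.76 on the KO arrays (-2.40 ± 0.33, adjusted p = 0.0038). Smad6, an inhibitor of BMP receptor signalling, lay at -0.47, -0.60 and -0.51 in WT and at -1.30, -1.88 and -1.90 in KO muscle (-1.17 ± 0.16, adjusted p = 0.00394). Its WT arrays lay close together and above every KO array. Smad7, which restrains both branches, lay at -0.38, -1.19 and -1.35 in WT and at -1.92, -2.49 and -3.01 in KO muscle (-1.50 ± 0.32, adjusted p = 0.0357). Id1 had the same layout, with 2.23, 2.19 and 2.33 in WT against 1.40, 0.77 and 0.75 in KO muscle, yet at -1.27 ± 0.40 it did not pass the test (adjusted p = 0.139). The calls of Id2, Id3, Atoh8 and Smad6 held without any 1 array. That of Smad7 ended without WT 1, WT 2, KO 2, KO 3, innervated WT 3 or innervated KO 2 (adjusted p up to 0.116).

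Among the Smads themselves, 2 of 6 measured genes were called lower, Smad6 and Smad7, against 1.44% of all genes. The receptor-activated Smads did not pass. Smad5 differed by 0.30 and Smad3 by -0.37, while Smad1 (-0.04) and Smad2 (-0.01) lay on the other side of 0 with quantile normalization (0.03 each). Of 20 measured BMP receptors, co-receptors and antagonists none passed (1 higher and 1 lower at an unadjusted p under 0.05), with the antagonist Nog at -0.81 ± 0.50 (adjusted p = 0.457). Among 12 BMP and GDF ligands only Gdf15 was called, higher in KO muscle, against 0.952% of all genes called higher. Gdf5 differed by 0.27 ± 0.34 (adjusted p = 0.745). None of 20 TGF-beta target genes and none of 23 ligands, receptors and antagonists of the myostatin, activin and TGF-beta branch passed, at an unadjusted p under 0.05 with 3 higher and 2 lower, and with 2 higher and 5 lower, respectively. Myostatin (Mstn), a ligand that limits muscle growth, lay at 0.40, 0.63 and 0.39 in WT and at -0.39, -0.02 and -0.30 in KO muscle (-0.71 ± 0.18, adjusted p = 0.0738). Its groups did not overlap, but it did not pass the test.

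**Figure D2:**
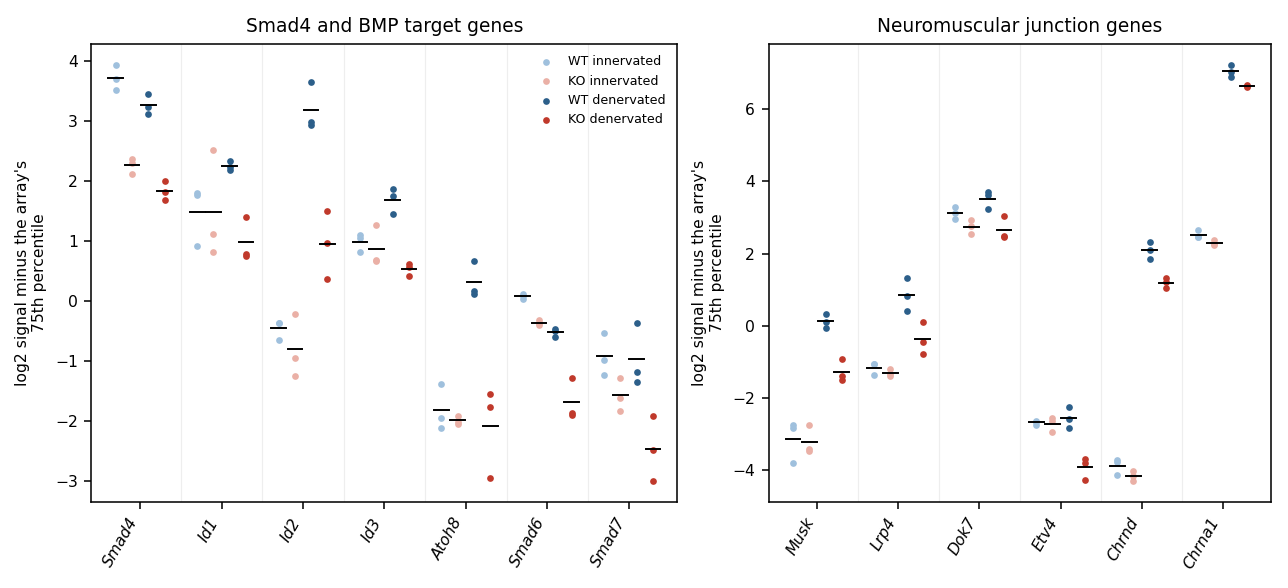
Scaled signal (log2 signal minus the 75th percentile of the array) of Smad4, BMP target genes and neuromuscular junction genes on all 12 arrays. Points are arrays, bars are means of 3, light colours are innervated and dark colours denervated muscle, blue is WT and red KO. In denervated muscle the KO arrays of every gene shown lie below the WT arrays, also for Id1 and Chrna1, which did not pass the test.

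Some genes of the neuromuscular junction were also lower. Of 21 measured members 5 were called lower and none higher, against 1.44% of all genes called lower, and the median was -0.23 against -0.03 for all genes. Musk, the kinase that gathers acetylcholine receptors, lay at 0.12, -0.05 and 0.34 on the WT arrays and at -1.39, -1.50 and -0.92 on the KO arrays (-1.41 ± 0.30, adjusted p = 0.0331). Lrp4, the agrin receptor that activates Musk, lay at 0.40, 1.32 and 0.82 in WT and at -0.45, 0.12 and -0.76 in KO muscle (-1.22 ± 0.25, adjusted p = 0.0331). Dok7, the adaptor that binds Musk inside the cell, differed by -0.86 ± 0.20 (adjusted p = 0.0487) and is named because it completes the called members, after its value was seen. The agrin receptor, the kinase and its adaptor were each lower on all KO arrays than on any WT array. Such separation was found for 363 of the 364 called genes and adds nothing to the calls.

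Etv4, an ETS-family transcription factor of synaptic muscle nuclei, lay at -2.23, -2.83 and -2.56 in WT and at -3.79, -4.26 and -3.69 in KO muscle (-1.37 ± 0.20, adjusted p = 0.00469). Chrnd, the delta subunit of the acetylcholine receptor, lay at 1.86, 2.33 and 2.12 in WT and at 1.32, 1.05 and 1.22 in KO muscle (-0.91 ± 0.17, adjusted p = 0.018). The other subunits did not pass: Chrna1 differed by -0.40 ± 0.13 (adjusted p = 0.156) and by -0.12 with quantile normalization, and the fetal subunit Chrng by -0.14 ± 0.69 (adjusted p = 0.949) and by 0.01 with quantile normalization. The KO arrays of Chrna1 lay below its WT arrays, while the groups of Chrng overlapped. Etv4 held its call without any 1 array. The call of Musk ended without WT 1, 2 or 3 or KO 1 or 2 (adjusted p up to 0.126). That of Lrp4 ended without WT 2 or 3, KO 1 or 3, innervated WT 1 or innervated KO 3 (up to 0.109), and that of Chrnd without WT 2 or 3 or KO 2 or 3 (up to 0.078). For Dok7 only the fits without WT 3 and without KO 1 kept the call (up to 0.163). With slide as a fixed block the adjusted p was 0.0722 for Musk, 0.051 for Lrp4, 0.0623 for Chrnd and 0.0532 for Dok7.

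Several other genes known to respond to denervation did not pass the test. The myogenic factor Myog differed by -0.43 ± 0.37 (adjusted p = 0.601), the deacetylase Hdac4 by -0.02 ± 0.14 (0.96; 0.14 with quantile normalization), the transcription factor Runx1 by 0.01 ± 0.49 (0.994; -0.02 with scaling to the array median) and embryonic myosin Myh3 by 0.07 ± 0.57 (0.97). The corepressor Dach2 was not well above background on any denervated array. Ncam1, an adhesion molecule of denervated fibres, lay at 4.73, 4.73 and 4.28 in WT and at 2.92, 2.53 and 3.75 in KO muscle but did not pass (-1.52 ± 0.44, adjusted p = 0.11), and its 8 probes ranged from -1.75 to 0.12. Among 21 myogenic and denervation regulators, only Vgll2, a cofactor of TEAD factors in muscle, was called lower, against 1.44% of all genes, and none higher. It lay at 4.29, 3.94 and 3.59 in WT and at 2.47, 1.77 and 1.79 in KO muscle (-1.93 ± 0.23, adjusted p = 0.00204) and held without any 1 array.

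The ubiquitin ligases that serve as markers of atrophy did not pass the test. Fbxo32 differed by 0.14 ± 0.51 (adjusted p = 0.924), with 3.32, 4.78 and 5.29 in WT against 4.34, 5.45 and 4.02 in KO muscle. Trim63 differed by 0.44 ± 0.23 (0.38), Fbxo30 by 0.35 ± 0.24 (0.511) and Fbxo31 by -0.27 ± 0.22 (0.599). The arrays of both genotypes overlapped for Fbxo32 and Trim63. Of 19 measured ubiquitin ligases of the list only Mdm2 was called, and it was higher, against 0.952% of all genes called higher. No member of the 32 proteasome genes or the 33 autophagy and lysosome genes was called by limma (at an unadjusted p under 0.05, none of the first, and none higher and 3 lower of the second), with medians of -0.07 and -0.11. With quantile normalization these medians were 0.10 and -0.02.

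Among the genes that were higher in KO muscle were some of growth arrest. Cdkn1c, which encodes the cyclin-dependent kinase inhibitor p57, lay at 2.63, 2.67 and 2.38 on the WT arrays and at 5.29, 6.16 and 5.36 on the KO arrays. It was 8.23-fold higher (log2 3.04 ± 0.27, adjusted p = 4.72e-04; probe on chromosome 7, minus strand, 143268238 to 143268297, mm8) and every KO array was far above every WT array. Perp, a membrane protein induced by p53, lay at -2.09, -1.43 and -1.53 in WT and at 0.22, 1.53 and 0.36 in KO muscle (2.39 ± 0.36, adjusted p = 0.00696). Mdm2, the ubiquitin ligase of p53, differed by 0.85 ± 0.17 (adjusted p = 0.0235). These were the 3 called members of the 22 measured genes of growth arrest and the p53 response, of which none was called lower (median 0.21), against 0.952% of all genes called higher. Cdkn1c and Perp held without any 1 array, whereas the call of Mdm2 ended without WT 1 or 2 or KO 2 or 3 (adjusted p up to 0.0784).

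A pair of circulating stress factors was higher as well. Fgf21, a hormone released by stressed muscle and liver, lay at -2.99, -3.77 and -3.17 in WT and at -0.36, 0.62 and -1.63 in KO muscle, 7.23-fold higher (2.85 ± 0.44, adjusted p = 0.00725). Gdf15, a distant member of the TGF-beta family that acts on appetite, lay at -2.11, -3.24 and -3.02 in WT and at 0.04, 0.34 and -0.83 in KO muscle (2.65 ± 0.38, adjusted p = 0.00469). Both were dim in WT muscle but well above background on all 6 arrays, and both held without any 1 array. They were the only 2 called of 22 measured genes of the integrated stress response, whose median was -0.01. Over all genes 0.952% were called higher. Igfbp2, which binds insulin-like growth factors, was 10.2-fold higher, at 0.17, 0.43 and -0.18 in WT against 3.22, 3.86 and 3.39 in KO muscle (3.35 ± 0.58, adjusted p = 0.012). Its call ended without KO 2 (adjusted p = 0.0606).

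Among genes of Wnt signalling a few were higher. In the list of Wnt antagonists and targets 3 of 14 measured members were called higher, against 0.952% of all genes, and none lower (median 0.67). Dkk3, a secreted protein of the Dickkopf family, lay at -2.71, -2.99 and -2.61 in WT and at -1.09, -0.99 and -1.01 in KO muscle (1.74 ± 0.20, adjusted p = 0.00161) and held without any 1 array. Sfrp1, a decoy for Wnt ligands, differed by 1.55 ± 0.26 (adjusted p = 0.012) and lost its call only without WT 2 (0.0549). The third was no antagonist but the ligand Wnt9a (0.73 ± 0.14, adjusted p = 0.0207), whose call ended without WT 1, 2 or 3 or KO 1 or 3 (up to 0.0679).

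**Figure D3:**
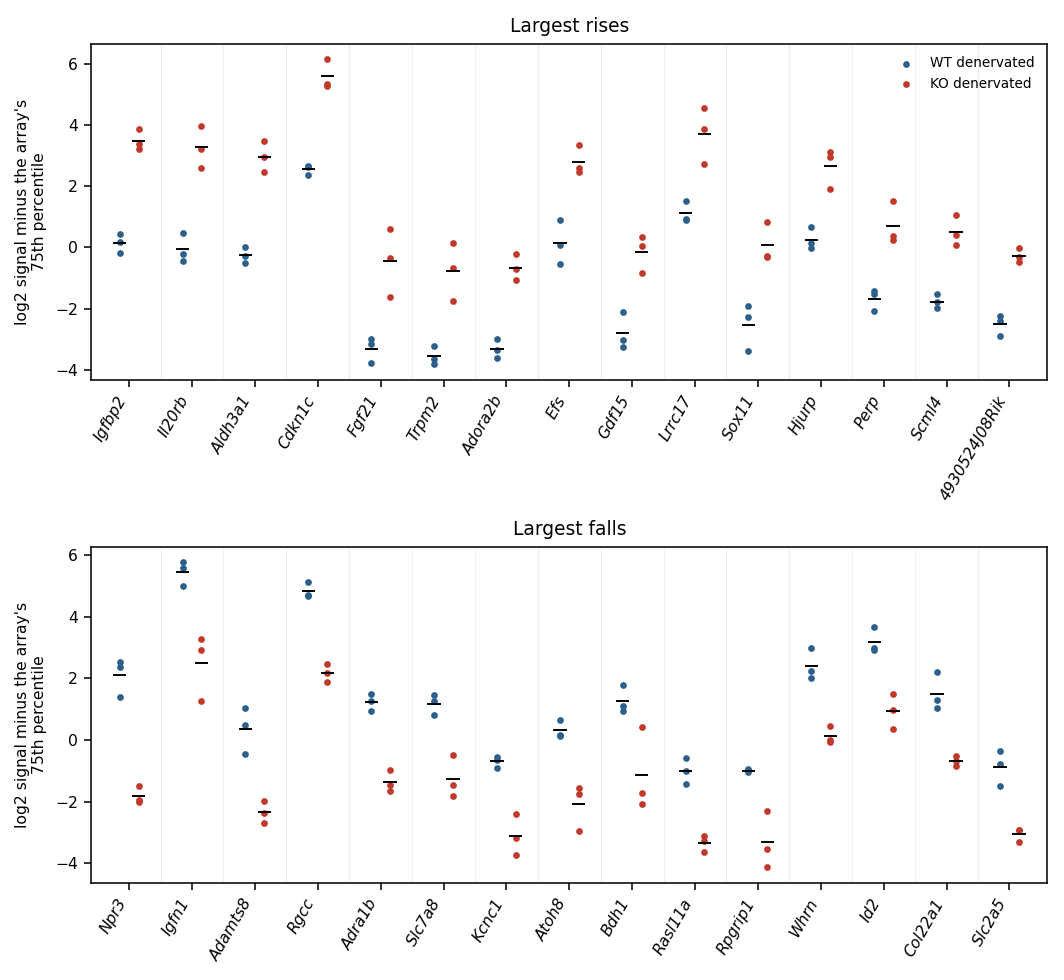
Scaled signal (log2 signal minus the 75th percentile of the array) of the 15 largest rises and 15 largest falls on the 6 denervated arrays, chosen for their size among called genes well above background on all 6 arrays. Points are arrays, bars are means of 3, blue is WT and red KO. No gene shown has overlapping groups, which the choice of these genes requires.

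The largest rises, chosen for size among called genes seen on all 6 arrays, held receptors and enzymes of several kinds. Il20rb, a subunit of receptors for interleukins of the IL-20 family, lay at -0.22, -0.43 and 0.46 in WT and at 3.22, 3.97 and 2.60 in KO muscle (3.33 ± 0.35, adjusted p = 0.00133), with 2.01 on its other probe. Aldh3a1, an aldehyde dehydrogenase, lay at -0.51, -0.29 and 0.00 in WT and at 2.46, 2.95 and 3.48 in KO muscle (3.23 ± 0.44, adjusted p = 0.00349). Adora2b, an adenosine receptor, lay at -3.60, -3.37 and -3.01 in WT and at -1.08, -0.21 and -0.71 in KO muscle (2.66 ± 0.23, adjusted p = 4.18e-04). The calcium-permeable channel Trpm2 (2.80), the Src-family adaptor Efs (2.65), the secreted leucine-rich protein Lrrc17 (2.61), the transcription factor Sox11 (2.60) and the centromere chaperone Hjurp (2.41) followed, with Scml4 at 2.28 and 4930524J08Rik at 2.23. Each gene of this paragraph held without any 1 array. Hjurp had 4 probes, whose differences ran from 0.89 to 2.67, and with slide as a fixed block Sox11 lost its call.

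Among called genes above background on all 6 arrays the largest fall was that of Npr3, the clearance receptor of natriuretic peptides. It lay at 2.37, 2.53 and 1.39 in WT and at -1.93, -1.49 and -2.0 in KO muscle, 15.02-fold lower (log2 -3.91 ± 0.26, adjusted p = 7.71e-05; probe on chromosome 15, minus strand, 11784907 to 11784966, mm8), and its 3 probes differed by -4.12 to -3.86. Rgcc, a regulator of the cell cycle, lay at 4.71, 5.12 and 4.68 in WT and at 2.46, 2.15 and 1.89 in KO muscle (-2.67 ± 0.21, adjusted p = 2.85e-04). Adra1b, an adrenergic receptor, lay at 1.27, 0.94 and 1.5 in WT and at -1.67, -1.47 and -0.99 in KO muscle (-2.61 ± 0.25, adjusted p = 9.34e-04). All 3 genes held without any 1 array and also under normexp correction. The small GTPase Rasl11a (-2.33), the stereocilia scaffold Whrn (-2.29), the collagen of muscle-tendon junctions Col22a1 (-2.19) and the fructose transporter Slc2a5 (-2.16) held without any 1 array too. The protease Adamts8 (-2.70) lost its call without WT 2, KO 2 or KO 3 (adjusted p up to 0.0535).

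Some called genes were seen in only 1 genotype, so that their fold is a bound, with the dim group set at the lowest signal well above background on each array or at the probe's own signal if higher. Kcnf1, a silent subunit of potassium channels, was not well above background on any KO array and at least 13.6-fold lower (measured means -0.86 in WT and -5.99 in KO, adjusted p = 0.00182). In the same way Ankrd55 was at least 9.83-fold lower (-1.33 and -5.89, adjusted p = 4.18e-04), Wfdc2 at least 6.59-fold (-1.91 and -5.13, 0.0103), Cpne4 at least 5.32-fold (-2.21 and -6.11, 0.00818) and Awat2 at least 4.16-fold (-2.57 and -5.28, 0.0238). Of these, Wfdc2 lost its call without KO 2 and Awat2 without KO 1, 2 or 3. In the other direction Rassf10 was at least 5.07-fold higher (-5.18 in WT and -2.14 in KO, adjusted p = 9.92e-04), and Btla, an inhibitory receptor of lymphocytes, at least 3.46-fold (-5.31 and -2.75, 4.53e-04). Rhbdl2 was at least 3.26-fold higher (-4.88 and -2.80, 0.021) but lost its call without WT 1 or 3. The calls of Lrrc15 (at least 4.49-fold, adjusted p = 0.0461) and Dnase1l3 (at least 3.54-fold, 0.0438) were the weakest, with an adjusted p up to 0.153 without 1 array. That of Lrrc15 held only without KO 2, and that of Dnase1l3 only without WT 1, innervated KO 1, 2 or 3. The lowest adjusted p of all genes belonged to the transcript TC1660846, a name for which no symbol was matched, which was not well above background in WT and at least 2.60-fold higher in KO muscle (adjusted p = 1.02e-05).

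Potassium channels differed in both directions. Of 20 measured members 4 were called lower and 1 higher, against 1.44% and 0.952% of all genes (median -0.26). Kcnc1, a fast delayed rectifier, lay at -0.65, -0.55 and -0.89 in WT and at -2.42, -3.16 and -3.74 in KO muscle (-2.41 ± 0.31, adjusted p = 0.0028), with the smallest difference among its 3 probes at -0.80. Kcnc4, of the same family, differed by -1.80 ± 0.33 (adjusted p = 0.0167). Of the calcium-activated channels of small conductance, Kcnn3, known to appear in denervated fibres, lay at -0.85, -1.23 and -0.70 in WT and at -2.43, -3.11 and -2.64 in KO muscle (-1.80 ± 0.27, adjusted p = 0.00605), and Kcnn1 differed by -0.62 ± 0.14 (0.0491). Kcnn2 went the other way, with -3.35, -2.84 and -3.85 in WT against -2.07, -1.43 and -2.07 in KO muscle (1.49 ± 0.30, adjusted p = 0.0269). Kcnc1 and Kcnn3 held without any 1 array. Kcnc4 lost its call without WT 1 or 3 or KO 2 (up to 0.0688), Kcnn2 without WT 1 or 3 or KO 2 or 3 (up to 0.11), and Kcnn1, named after its value was seen, without any 1 of the 12 arrays (up to 0.156).

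Heat shock proteins formed the list with the most called members. Of 21 measured, 7 were called lower and none higher, against 1.44% of all genes called lower (median -0.32, or -0.18 with quantile normalization). Hspa1a, an inducible Hsp70, lay at 3.43, 3.42 and 2.30 in WT and at 1.76, 1.16 and 0.95 in KO muscle (-1.76 ± 0.29, adjusted p = 0.0105), and its 4 probes agreed within -1.94 to -1.56. The small heat shock proteins are chaperones of the sarcomere. Hspb7 lay at 5.62, 5.25 and 5.69 in WT and at 4.29, 3.06 and 4.32 in KO muscle (-1.63 ± 0.30, adjusted p = 0.0186), and Hspb8 at 7.19, 7.20 and 7.22 in WT and at 6.06, 6.47 and 6.43 in KO muscle (-0.88 ± 0.16, adjusted p = 0.0185). The co-chaperone Dnajb4 differed by -0.83 ± 0.13 (adjusted p = 0.00828), although another of its 3 probes was at -0.13.

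The remaining called chaperones, Hspb6 (-1.62), Hspb1 (-1.02) and Cryab (-0.98), are named after their values were seen, and a second probe of Cryab was at 0.29. For all 7 genes the KO arrays lay below the WT arrays. The groups of 363 of the 364 called genes did not overlap, so this is no separate check. Dnajb4 held without any 1 array. Hspa1a lost its call without WT 2 or KO 2 (adjusted p up to 0.0509), Hspb7 without WT 1 or 3 (0.0632), Hspb8 without WT 1, 2 or 3 (0.0668), Cryab without WT 1 or 2 or KO 2 or 3 (0.0785) and Hspb6 without WT 1, 2 or 3 or KO 2 or 3 (0.0852). Hspb1 kept it only without KO 1 (up to 0.137). With quantile normalization Hspb1, Hspb6, Hspb7, Hspb8 and Cryab did not pass.

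**Figure D4:**
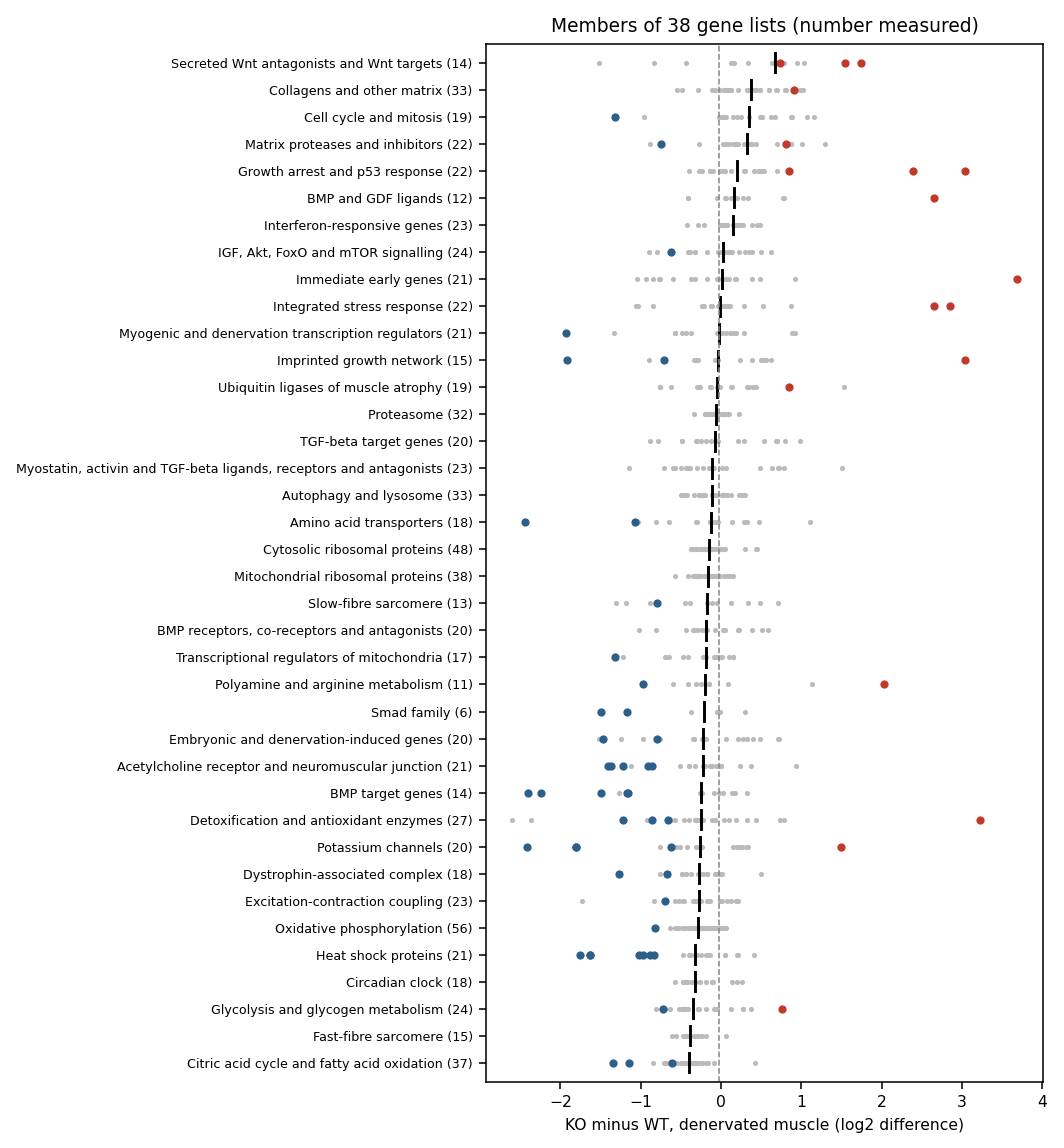
KO minus WT log2 difference in denervated muscle of every measured member of 38 gene lists, ordered by the list median (black bar). Red points were called higher, blue points lower, grey points were not called, and the dashed line is the median of all genes (-0.03). Heat shock proteins have 7 blue points, and BMP targets and neuromuscular junction genes 5 each.

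Genes of energy metabolism leaned lower with few calls. Of 37 measured genes of fatty acid oxidation and the citric acid cycle 3 were called lower and none higher, against 1.44% and 0.952% of all genes. In this list 36 of 37 differences were negative, against 53.4% over all genes and 67.3% in the brightest of the 4 signal groups, and the median was -0.40. Fabp3, which carries fatty acids in muscle, lay at 5.61, 6.0 and 5.73 in WT and at 4.90, 4.30 and 4.10 in KO muscle (-1.35 ± 0.21, adjusted p = 0.00793) and held without any 1 array. The mitochondrial isocitrate dehydrogenase Idh2 differed by -1.15 ± 0.22 (adjusted p = 0.0213) and the pyruvate dehydrogenase subunit Pdha1 by -0.61 ± 0.14 (0.0459). In oxidative phosphorylation 1 of 56 genes was called, the succinate dehydrogenase subunit Sdhb (-0.82 ± 0.16, adjusted p = 0.0207), with 54 negative differences and a median of -0.29. Glycolysis and glycogen genes had a median of -0.35 over 24 genes, with the phosphoglycerate mutase Pgam2 called lower (-0.73 ± 0.15, adjusted p = 0.0282) and hexokinase Hk1 higher (0.76 ± 0.17, 0.0483; another of its 3 probes was at -0.07).

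These medians rested in part on the scaling. With quantile normalization they were -0.29 for fatty acid oxidation with the citric acid cycle, -0.08 for oxidative phosphorylation and -0.13 for glycolysis. Idh2 lost its call without WT 1 or 3 or KO 2 or 3 (adjusted p up to 0.0881), Sdhb without WT 1 or 2 or KO 2 or 3 (0.08), Pgam2 without WT 1, 2 or 3 or KO 2 or 3 (0.107), Hk1 without any array but WT 1 (0.153) and Pdha1 without any array but innervated WT 3 (0.141). Of 17 transcriptional regulators of mitochondria, only Esrrg was called (-1.31 ± 0.23, adjusted p = 0.014), against 1.44% of all genes called lower. Esrrg is an orphan nuclear receptor of oxidative metabolism. Its second probe was at -0.09, and its call ended without WT 1 or KO 3 (up to 0.0529). Bdh1, the ketone body enzyme among the 15 largest falls, lay at 1.77, 1.09 and 0.94 in WT and at 0.42, -1.71 and -2.09 in KO muscle (-2.40 ± 0.52, adjusted p = 0.04), a call that held only without KO 1 (up to 0.151).

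In the contractile apparatus no member of the 15 fast-fibre sarcomere genes was called by limma (none higher and 5 lower at an unadjusted p under 0.05). Their median was -0.38, or -0.07 with quantile normalization. Of 13 slow-fibre sarcomere genes 1 was called lower, Csrp3, and none higher (2 higher and 4 lower at an unadjusted p under 0.05), with a median of -0.18, or -0.02 with quantile normalization. Ankrd1, a stretch-responsive protein of the sarcomere, lay at 6.81, 7.03 and 6.61 in WT and at 5.68, 5.06 and 5.31 in KO muscle (-1.47 ± 0.31, adjusted p = 0.0349), and Csrp3, a LIM protein of the Z-disc, differed by -0.80 ± 0.17 (0.0362). Both are on the list of embryonic and denervation-induced genes, of which 2 of 20 were called lower and none higher. Over all genes 1.44% were called lower. The muscle protease Capn3 differed by -0.67 ± 0.14 (adjusted p = 0.0299). Ankrd1 lost its call without WT 1, 2 or 3, KO 2 or 3, innervated WT 2 or innervated KO 2 (up to 0.133), Csrp3 without WT 1 or 2, KO 2 or 3, innervated WT 2 or innervated KO 1, 2 or 3 (up to 0.13) and Capn3 without WT 1 or 2 or KO 1, 2 or 3 (up to 0.105). With quantile normalization Ankrd1 (0.0815) and Csrp3 (0.21) did not pass.

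Transport and small-molecule metabolism showed single large differences. The counts below stand beside 0.952% of all genes called higher and 1.44% called lower. Slc7a8, a transporter of neutral amino acids, lay at 0.81, 1.27 and 1.45 in WT and at -1.83, -0.49 and -1.45 in KO muscle (-2.44 ± 0.33, adjusted p = 0.00349) and held without any 1 array. Slc38a3, a glutamine transporter, differed by -1.07 ± 0.22 (adjusted p = 0.0282) and was the only other called member of 18 amino acid transporters. Its call ended without WT 1, 2 or 3 or KO 2 or 3 (up to 0.09). In polyamine and arginine metabolism, agmatinase (Agmat) was higher, at -0.22, 0.74 and 1.81 in WT against 2.89, 3.33 and 2.18 in KO muscle (2.03 ± 0.43, adjusted p = 0.0346), and spermine synthase (Sms) lower (-0.97 ± 0.19, 0.0249). Agmat kept its call only without WT 3, KO 3 or innervated KO 2 (up to 0.135), and Sms lost it without WT 1 or 2 or KO 2 or 3 (up to 0.0967). Of 27 detoxification and antioxidant enzymes Aldh3a1 was called higher, while catalase (Cat, -0.86 ± 0.14, adjusted p = 0.0103), Aldh1a1 (-1.22 ± 0.23, 0.0213) and Srxn1 (-0.66 ± 0.15, 0.0458) were lower. Cat held without any 1 array but had an adjusted p above 0.05 with quantile normalization, Aldh1a1 lost its call without WT 2 or KO 2 or 3 (up to 0.0866), and Srxn1 kept it only without innervated KO 2 (up to 0.151).

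Among imprinted genes of the growth network, 1 of 15 was higher, Cdkn1c, and 2 were lower, against 0.952% and 1.44% of all genes. The long non-coding RNA H19 lay at 7.35, 7.31 and 7.18 in WT and at 6.16, 4.65 and 5.29 in KO muscle (-1.91 ± 0.32, adjusted p = 0.0106), with -1.85 on its other probe, and held without any 1 array. Gnas differed by -0.72 ± 0.16 (adjusted p = 0.0417), but its 4 probes ranged from -0.77 to 0.50 and no fit without 1 array kept its call (up to 0.13). In the cell cycle list 1 of 19 genes was called, the replication helicase subunit Mcm6, at 2.47, 2.53 and 2.41 in WT and 0.93, 1.43 and 1.11 in KO muscle (-1.32 ± 0.16, adjusted p = 0.00182). In that list 16 of 19 differences were positive, against 46.6% over all genes (median 0.35). The immediate early gene Egr3 was higher (3.69 ± 0.81, adjusted p = 0.0402), with -3.74, -4.65 and -0.75 in WT against 0.74, 1.32 and -0.14 in KO muscle. WT 3 lay close to the KO arrays, only 2 WT arrays were well above background, and the call held only without WT 3 (up to 0.15). Deptor, an inhibitor of mTOR, was the only called gene of 24 in IGF, Akt, FoxO and mTOR signalling (-0.62 ± 0.14, adjusted p = 0.0487), and kept its call only without KO 3 (up to 0.147). Srl, a calcium-binding protein of the sarcoplasmic reticulum and the only one called of 23 genes of excitation-contraction coupling, differed by -0.69 ± 0.15 (adjusted p = 0.0376) and kept its call only without innervated KO 2 (up to 0.119).

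Genes of the extracellular matrix leaned higher. Of 33 collagens and other matrix genes 27 differences were positive, against 46.6% over all genes, with a median of 0.37. That median was 0.71 within slide 1, 0.16 within slide 4 and 0.22 in innervated muscle. In this list 1 gene was called, the collagen Col14a1 (0.91 ± 0.20, adjusted p = 0.0411), against 0.952% of all genes called higher. Of 22 matrix proteases and inhibitors 19 differences were positive (medians of 0.65 within slide 1 and 0.20 within slide 4), with the protease Adamts15 called higher (0.81 ± 0.18, 0.0385) and the inhibitor Serpine2 lower (-0.75 ± 0.13, 0.0113). Over all genes 1.44% were called lower. Serpine2 held without any 1 array. Col14a1 kept its call only without innervated WT 1 or 2 or innervated KO 1 or 2 (up to 0.119), and Adamts15 only without WT 3, innervated WT 2 or 3 or innervated KO 2 or 3 (up to 0.133). With scaling to the array median neither passed. No member was called by limma among 48 cytosolic ribosomal protein genes (1 higher and 1 lower at an unadjusted p under 0.05), 38 mitochondrial ribosomal protein genes (none and 3), 18 clock genes (none and 1) and 23 interferon-responsive genes (none and 1).

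Markers of other cell types in the muscle were measured beside these groups. Of 14 marker lists only 2 held a called gene, the tendon list with Chad (-1.44 ± 0.30, adjusted p = 0.0309) and the adipocyte list with Cidea (-1.43 ± 0.25, 0.0144). These were 1 of 8 and 1 of 9 measured members, both lower, against 1.44% of all genes called lower. Chad lost its call without WT 1, 2 or 3 or KO 2 or 3 (up to 0.114) and Cidea without WT 1 or 2 or KO 2 or 3 (up to 0.0587). The summed scaled signal of 8 tendon markers was 99.8 to 125 on the WT arrays and 78.3 to 85.4 on the KO arrays, with a median difference of -0.34 in denervated and -0.79 in innervated muscle. All 5 measured erythrocyte markers were negative (median -1.31, 5 at an unadjusted p under 0.05), with sums of 38.6 to 91.0 in WT and 17.4 to 42.9 in KO muscle. Macrophage markers were positive in 15 of 16 (median 0.32, sums of 53.2 to 63.4 in WT and 60.2 to 86.7 in KO). Smooth muscle and pericyte markers were positive in 8 of 12 (median 0.37), although their sums of 269 to 299 in WT and 157 to 209 in KO ran the other way. The brightest probes of Acta2 (-0.78) and Des (-0.66) weighed most in these sums. Des is also on the muscle fibre list, and the dimmer Acta2 probes differed by 0.65, 1.34 and 0.95. Muscle fibre markers were negative in 10 of 10 (median -0.41, or -0.10 with quantile normalization, with sums of 1792 to 2681 and 1463 to 2151). Over all genes 46.6% of differences were positive and 53.4% negative, with 67.3% negative in the brightest of the 4 signal groups. No measured member of these 5 lists was below background on all 6 arrays. T and B cell markers were negative in 5 of 6 (median -0.43), of which 2 were well above background on all 6 arrays. Granulocyte and mast cell markers were negative in 6 of 10 (median -0.48), of which 5 were. The part of these cells in the results was not tested.

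The same genes were looked up in innervated muscle, where KO and WT are compared on 6 other arrays that share the slides only in part. Slide 2 held no denervated array. Slide 4, scanned on another day, held denervated WT 2 and WT 3 but no innervated WT array. Slide and scan day are thus not balanced between the conditions. Of the 364 called genes only Smad4 was also called in innervated muscle (1 of 15225 genes, 0.00657%, with 610, or 4.01%, at an unadjusted p under 0.05). The 145 genes that were higher in denervated KO muscle had a median of 1.43 there and of 0.17 in innervated muscle, and the 219 lower genes had medians of -1.15 and -0.03. The sign was the same in both conditions for 228 of 364 called genes (62.6%), against 51.3% of all genes. At an unadjusted p under 0.05 in innervated muscle, 42 of the called genes had the same sign and 7 the other.

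A few of the called genes had large differences in innervated muscle too. Smad4 differed by -1.45 there. The sarcomeric protein Igfn1 lay at 4.98, 5.56 and 5.77 in WT and at 3.27, 1.27 and 2.93 in KO muscle after denervation (-2.95 ± 0.54, adjusted p = 0.0178, lost without WT 2 or 3 or KO 2 and up to 0.0711). In innervated muscle it was well above background on all WT arrays and on no KO array, so its difference there has no measured size. Rpgrip1 differed by -2.32 ± 0.40 (adjusted p = 0.0121, or 0.0527 without WT 2) and by -2.36 without denervation, where 2 of 3 KO arrays were well above background, and Slc7a8 by -2.44 and -1.66. In innervated muscle Smad4 was the only one of these 4 that passed over all genes.

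The difference between the genotype effects with and without denervation was tested as an interaction. It passed for 30 of 15225 genes (0.197%), 15 with a more positive and 15 with a more negative difference after denervation, and all 30 were among the 364. The count moved with single arrays, from 2 without innervated WT 1 to 51 without KO 1; it was 4 without innervated WT 2, 5 without innervated KO 2, 7 without KO 3, 9 without innervated KO 1, 11 without KO 2, 13 without WT 2 or innervated WT 3, 15 without WT 3, 18 without innervated KO 3 and 24 without WT 1. Npr3, Rgcc, Adora2b, Cdkn1c, Dkk3, Hjurp and Vgll2 were among the 13 seen above background on each of the 12 arrays. A further 13, such as Ankrd55, Rassf10, Btla and Slc2a5, were not well above background on any innervated array, so their innervated difference has no measured level on either side.

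**Figure D5:**
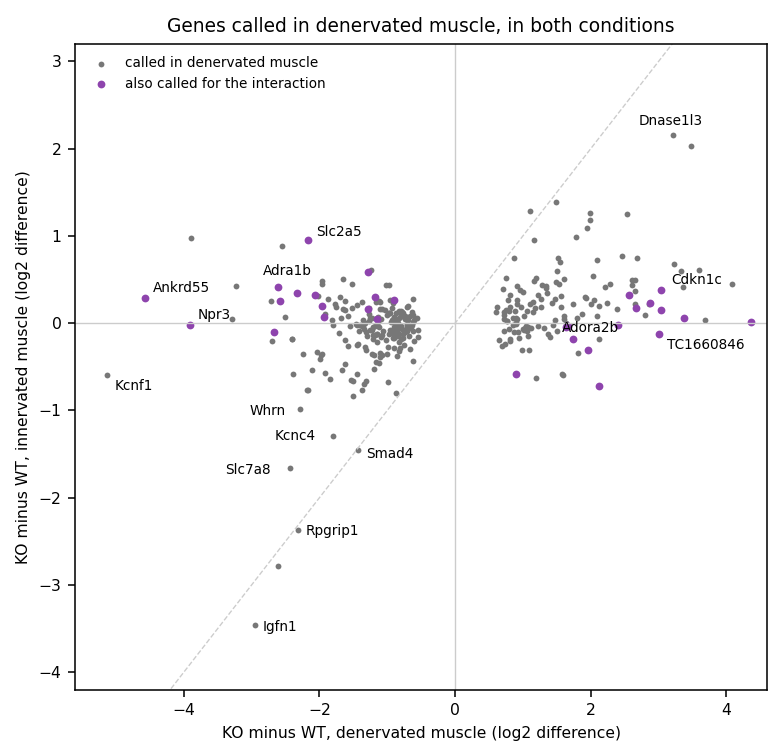
KO minus WT log2 difference in denervated muscle (x axis) and in innervated muscle (y axis) of the 364 genes called in denervated muscle. Purple points (30) were also called for the interaction of genotype and denervation, and the dashed line marks equal differences. Npr3 lies at -0.02 on the y axis, Cdkn1c at 0.38 and Adra1b at 0.42, while Smad4 and Rpgrip1 lie near the line. Ankrd55 was not well above background on any innervated array, so its height is not a measured size. Igfn1 was not above background on any innervated KO array, so its height is not a measured size.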

How the data were processed

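Total RNA of each muscle was hybridised in 1 colour (Cy3) to an Agilent array, 12 arrays in all. The authors deposited each array's intensity values, which per the file headers are processed signals after background subtraction and detrending by Feature Extraction 10.7.3.1 (the submitters' processing notes name 10.5.1.1), and a series matrix of intensity values with nearly the same quartiles in each column; the method behind it is not given in the sources used here. From the processed signals, log2 values minus the 75th percentile of each array were computed over 43379 non-control spots, and spots of a probe were averaged. Of 41174 probes, 22524 passed the scanner's test of being well above background on each array of at least 1 of the 4 groups, which left 15225 genes, each by its brightest probe. No probe was saturated. Probes were named through RefSeq (GRCm38.p6) by accession (24421), symbol (6307) or synonym (2385), and 8061 kept the name in the file. Coordinates are those of the files (mm8).

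All 12 arrays were fitted with limma 3.58.1 (R 4.3.3; lmFit, eBayes) as 4 group means, with Benjamini-Hochberg adjustment over all genes and a threshold of 0.05. The script was tested on simulated data. An SE is that of the fitted difference. The number of arrays, 3 per group, limits the precision. Named are Smad4, a panel of 17 denervation and BMP genes, the 15 largest rises and falls among called genes above background on all 6 denervated arrays, 5 bounds each way, and up to 4 members of a list and 6 genes of the interaction and of both conditions, by adjusted p; genes outside this rule are marked in the text or are members of a list or its receptor Smads. The comparison, panel and 52 gene lists (1039 members, 951 measured) were chosen with earlier results of these data known. Alternatives were quantile, median and normexp scaling, the deposited matrix, other filters, the mean of probes, slide and replicate blocks, and leaving out each array. A result on a withheld item is not reported here.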

Additional observations from a re-analysis of the deposited data

Results flagged for a closer look

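The genotype effect differed between denervated and innervated muscle for 30 genes, by the interaction term of the limma model (adjusted p under 0.05), and the genes named above that passed are given here with the denervated minus the innervated difference (log2 ± SE). That value was -3.89 ± 0.37 for Npr3 (adjusted p = 0.00302), -2.57 ± 0.30 for Rgcc (0.0106), -3.03 ± 0.36 for Adra1b (0.0108), -2.68 ± 0.40 for Rasl11a (0.0295) and -2.01 ± 0.33 for Vgll2 (0.0451), all of them lower in KO muscle after denervation. It was 2.66 ± 0.39 for Cdkn1c (0.0295), 2.49 ± 0.32 for Adora2b (0.0187), 2.43 ± 0.40 for Hjurp (0.0451) and 1.92 ± 0.28 for Dkk3 (0.0295), all of them higher. Stmn1, a microtubule regulator named after its value was seen, had 1.67 ± 0.27 (0.0451), with 1.63 in denervated and -0.04 in innervated muscle. In innervated muscle Npr3 differed by -0.02, Rgcc by -0.10, Cdkn1c by 0.38 and Adora2b by 0.17.

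Others were not well above background on any innervated array, so that the value rests on dim signals: 3.13 ± 0.22 for TC1660846 (adjusted p = 2.73e-04), -4.86 ± 0.55 for Ankrd55 (0.0106), 2.88 ± 0.42 for Rassf10 (0.0295), 2.25 ± 0.32 for Btla (0.0295) and -3.11 ± 0.48 for Slc2a5 (0.0349). With slide as a fixed block 1 gene passed this test, and with normexp background correction none did.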

How the results depend on the processing

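Under the alternatives the 364 calls of denervated muscle became 25 with normexp background correction, 213 with no filter on dim probes and 130 in the fit of the 6 denervated arrays alone; without 1 array there were 158 to 346. The other scalings, filters, the mean of probes and the slide as a block gave counts within 1.5 times of 364, but not always of the same genes: of the 364, 266 were still called with slide as a fixed block, 273 with the replicate block, 309 with quantile normalization and 364 with slide as a random block. All 364 kept their sign under each of these that gave them a value, except 9 with normexp. For the 363 without overlap between KO and WT arrays, leaving out 1 array could not change the sign. In innervated muscle the count of 1 became 5 with quantile normalization, array median scaling, the deposited series matrix values and slide as a random block, 4 with the mean of probes or the filter on all 6 denervated arrays, 3 with the filter on a denervated group, 0 with normexp, no filter, slide as a fixed block or the replicate block, and 0 to 4 without 1 array. The interaction count of 30 became 0 with normexp, 5 with no filter, 1 with slide as a fixed block and 2 to 51 without 1 array. It cannot be had from the 6 denervated arrays. A fixed block or fewer arrays left fewer degrees of freedom. The cause of the changes in these counts was not tested.

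The deviations of same-numbered denervated WT and KO arrays correlated at 0.20, 0.30 and 0.004. Differently numbered denervated WT and KO arrays lay at -0.27 to 0.019. WT 1 with KO 1 and WT 2 with KO 2 also shared a slide, so number and slide cannot be told apart there. Whether the numbers pair WT with KO samples was not tested. With the replicate block 316 genes were called, 122 of them higher. For the interaction the block gave 22 genes, 6 higher and 16 lower. Same-numbered denervated and innervated arrays correlated at 0.31, 0.11 and 0.23 in WT and at 0.091, 0.016 and 0.18 in KO muscle. Differently numbered ones lay at -0.25 to 0.014 in WT and at -0.24 to 0.11 in KO muscle. The replicate block also ties WT to KO arrays, so it cannot decide on a pairing within a genotype, which was not tested. Of the 113 genes named, 93 were called and none of these changed sign. Without 1 array they could not where their groups did not overlap. The signs of 8 genes that were not called did change. With quantile normalization Chrng was at 0.0095, Dach2 at 0.033, Hdac4 at 0.14, Smad1 at 0.031 and Smad2 at 0.031. With normexp Chrng was at 0.098, Hdac4 at 0.16, Smad1 at 0.068 and Smad2 at 0.049. With the deposited matrix Dach2 was at 0.027, Hdac4 at 0.11, Smad1 at 0.014 and Smad2 at 0.019. With slide as a fixed block Hdac4 was at 0.045, Myh3 at -0.20 and Smad2 at 0.035. With slide as a random block Myh3 was at -0.0086 and Smad2 at 0.00041. With array median scaling Runx1 was at -0.024. With the mean of probes Runx1 was at -0.16. Without 1 array the values ran from -0.40 to 0.089 for Chrng, -0.16 to 0.077 for Dach2, -0.43 to 0.55 for Fbxo32, -0.053 to 0.041 for Hdac4, -0.77 to 0.59 for Myh3, -0.085 to 0.10 for Runx1, -0.17 to 0.024 for Smad1 and -0.099 to 0.048 for Smad2.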
